A study of Mus musculus with 3 samples.

Results

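Type 2 conventional dendritic cells (cDC2s) without *Cd7* transcripts made up 763 of the 20378 barcodes that lay outside the authors' table of cDC1s, held 1000 or more genes and had under 10% of their unique molecular identifiers (UMIs, 1 per captured transcript) on mitochondrial genes. All barcodes numbered 30209. The cells were chosen by their counts: at least 1 UMI of *Flt3*, at least 2 of *Cd209a*, at least 1 of *Itgam* and *Sirpa* together, none of *Cd7*, *Ccr7*, *Xcr1*, *Ear2* or *Mki67*, at most 3 of *C1qa*, *C1qb* and *C1qc* together, and under 10 of *Cxcl9*. The study sorted dendritic cells from tumours and asked which states they take, with pools of mice that carry or lack secreted gelsolin (*sGsn*) and the receptor DNGR-1 (*Clec9a*). All groups were 6 to 20 weeks old, were co-housed, had a C57BL/6J background and carried an OVA-expressing transplanted fibrosarcoma (MCA205 LA-OVA) on both flanks until day 5. Tumours were pooled into 1 library per genotype, from 37 WT mice (25 males and 12 females), 31 *sGsn-/-* mice (15 males and 16 females) and 27 *sGsn-/- Clec9a-/-* mice (10 males and 17 females). Live CD45+ lineage-negative CD11c+ MHCII+ CD88- cells were sorted into pre-cDCs, cDC1s and cDC2s and mixed again in set proportions, so a share of a library is not a share of the tumour.

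cDC2s arise from bone marrow precursors under the growth factor FLT3 ligand and differ from cDC1s in carrying the integrin CD11b (*Itgam*) and the inhibitory receptor SIRPα (*Sirpa*). They present antigen on MHC class II to CD4+ T cells and sense microbes through C-type lectins, Toll-like receptors and Fc receptors. *Cd7*, a surface molecule of lymphocytes and of some precursors, served in the study to mark pre-cDCs.

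The WT library held 12763 barcodes and 176578136 UMIs, the *sGsn-/-* library 8173 barcodes and 109270958 UMIs, and the *sGsn-/- Clec9a-/-* library 9273 barcodes and 113411930 UMIs. The cDC2s without *Cd7* numbered 437, 135 and 191 in these libraries, which is the order in which the values of the 3 libraries are given throughout. They summed to 6356368, 1938521 and 2427025 UMIs, with a median of 14041, 13956 and 11963 UMIs and of 3086, 3101 and 2758 genes per cell. Levels are given in CPM, a unit in which all sums have the same total. Pairs of libraries shared 26, 28 and 27 barcode sequences, and none of these belonged to the cDC2s described here. Of the 763 cells, 27 (3.54%) were among the 6% of barcodes with the highest doublet score of their library.

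The thresholds ran through dense parts of the counts. Of the 763 cells, 468 held exactly 1 *Flt3* UMI, and 815 barcodes met every other criterion with none. At 2 *Cd209a* UMIs stood 99 cells, and 119 more barcodes held 1. A single *Itgam* or *Sirpa* UMI was held by 107 cells, and 82 barcodes that met the rest held neither. On the other side of the *Cd7* criterion lay 852 barcodes, 165 of them with 1 *Cd7* UMI. A single UMI of *Mki67* kept out 78 barcodes, of *Ccr7* 25, of *Xcr1* 25 and of *Ear2* 23. The *C1q* threshold had 5 cells just inside and 5 just outside, the gene number 4 and 2, the mitochondrial share 1 and 2, and *Cxcl9* none on either side. Farther out, 6 barcodes failed on *Cxcl9* alone, 0, 4 and 2 in the 3 libraries.

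The genotype labels were examined first on the targeted genes. *Clec9a* (ENSMUSG00000046080), which encodes DNGR-1, was at 189, 187 and 0.0749 CPM in resting cDC1s, the authors' clusters 0, 2, 3, 5 and 6, and at 5.98, 11.3 and 0 CPM in the cDC2s. The double-knockout library was thus the one without *Clec9a*. *Gsn* (ENSMUSG00000026879), the gene of gelsolin, was at 319, 356 and 327 CPM in the cDC2s, and since the counts do not separate its secreted form, it does not check the *sGsn-/-* label.

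The genes used for the choice describe the cells. *Cd209a*, a C-type lectin of the DC-SIGN family (ENSMUSG00000031494, GRCm38 chromosome 8, 3743397 to 3748984, minus strand), was at 737, 740 and 812 CPM. *Flt3*, the receptor of the growth factor, was at 114, 121 and 128 CPM, *Itgam* at 209, 204 and 210 CPM and *Sirpa* at 115, 121 and 117 CPM. The thresholds of the choice bear on all 4 levels.

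The label "mature" was examined on genes of dendritic cell maturation. *Ccr7*, which guides mature cells to lymph nodes, was 0 by the choice and cannot check the label. *Il4i1*, an enzyme of mature dendritic cells, was at 2.20, 8.25 and 6.18 CPM. Genes of precursors were present, among them *Kit*, the stem cell factor receptor, at 96.0, 102 and 94.8 CPM, and *Cd34*, a surface protein of progenitors, at 40.4, 37.1 and 40.8 CPM. Against the *Cd7*-positive cells described below, however, these were the only 2 of 20 precursor genes that were higher, and 11 were lower. Of 15 MHC class II genes 10 were higher in that comparison and none lower. Of 14 activation and costimulation genes tested, 10 were higher than in resting cDC1s and 3 lower, as given below. The values thus do not settle the label, and the cells are called cDC2s without *Cd7* here.

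Markers of other cell types were summed over lists of genes. The 12 cDC1 markers found in the matrices summed to 489, 535 and 504 CPM, with *Naaa* the most abundant (126, 122 and 145 CPM) and *Xcr1* at 0 by the choice, against 5394, 5306 and 5306 CPM in resting cDC1s. The 10 plasmacytoid cell markers summed to 394, 441 and 354 CPM, led by *Bst2* (247, 247 and 230 CPM), with *Klk1* at 0. The 11 monocyte markers summed to 1457, 1356 and 1415 CPM, led by the lipopolysaccharide co-receptor *Cd14* (441, 380 and 383 CPM), with *Chil3* at 0. The 15 macrophage markers summed to 550, 548 and 557 CPM, led by *Cd68* (197, 194 and 194 CPM). The 10 T cell markers summed to 23.8, 35.6 and 31.7 CPM, led by *Cd8b1*. The 8 B cell markers summed to 60.7, 68.6 and 62.2 CPM, most of it *Ighm*, with *Ms4a1*, *Jchain* and *Pax5* among those at 0. Neutrophil, mast cell, fibroblast, endothelial and red cell lists each summed to under 20 CPM in every library, and *S100a8*, *S100a9* and *Ly6g* of neutrophils, *Fcer1a* of mast cells and *Pdgfra* of fibroblasts were at 0. The part of these other cell types in the results below was not tested, apart from the NK cell markers.

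The most abundant transcripts, ribosomal and mitochondrial genes aside, were led by *Cd74*, the invariant chain of MHC class II, at 27264, 24802 and 25101 CPM. The MHC class II chains *H2-Ab1*, *H2-Eb1* and *H2-Aa* were also among the 20 most abundant, as were the ferritin chain *Fth1*, the cystatin *Cst3*, the cytokine *Il1b*, *Ifitm1*, *S100a6* and *S100a4*. Ribosomal protein genes took 25.5%, 25.3% and 26.3% of the UMIs.

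How cDC2s without *Cd7* differ from cDC1s was asked with the 3473 resting cDC1s (1473, 929 and 1071 cells; median 14438, 14813 and 12782 UMIs). The cDC2s were higher in C-type lectins, Fc receptors, chemokine receptors and genes of precursors, and lower in cDC1 markers, heat shock genes and most of the MHC class I pathway. Of 9382 genes tested, with the genes of the choice left out, 52.2% passed: 2414 were higher in the cDC2s (25.7%) and 2479 lower (26.4%). The median log2 fold change over all genes tested was −0.03. UMIs were summed per library and group and tested by the quasi-likelihood method of edgeR, with p-values adjusted after Benjamini-Hochberg and called under 0.05, and fold changes are given as log2 ± SE (n = 3 libraries a group). Resting cDC1s were clustered by the authors on these counts, so a p-value speaks of how alike the libraries were.

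C-type lectins and other cDC2 surface genes gave the widest gap to cDC1s. Of 28 such genes present beside *Cd209a*, 20 passed the low-count filter; 17 were higher in the cDC2s, 3 lower, and the median log2 fold change was 5.53. *Mgl2*, the lectin CD301b that binds galactose-type sugars (ENSMUSG00000040950, chromosome 11, 70130329 to 70137550, plus strand), was at 544, 556 and 516 CPM in the cDC2s and at 7.15, 6.40 and 7.79 CPM in resting cDC1s (6.20 ± 0.14, adjusted p = 1.15e-19 from edgeR's quasi-likelihood test, Benjamini-Hochberg adjustment, higher in 3 of 3 libraries). Its relative *Clec10a* was at 306, 304 and 378 CPM against 5.16, 5.95 and 4.42 CPM (5.95 ± 0.15). *Clec4n*, which encodes the fungal receptor Dectin-2, was at 181, 182 and 156 CPM against 2.46, 1.71 and 1.65 CPM (6.38 ± 0.20). The 3 libraries lay close together in both groups, and the groups did not overlap. The sialic acid-binding receptors *Siglece* (7.23 ± 0.19) and *Cd33* (6.99 ± 0.17) were higher too. *Clec9a* was among the 3 lower ones, and the *Clec9a* difference (−4.51 ± 1.10, adjusted p = 0.00152 from edgeR's quasi-likelihood test, Benjamini-Hochberg adjustment, lower in 3 of 3 libraries) rested on the libraries that have the gene. It no longer passed without the WT library (adjusted p = 0.0530) or with DESeq2 (0.0541). The *sGsn-/- Clec9a-/-* library lacks the gene, so its 0 against 0.0749 CPM adds no support.

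Among the 10 largest differences in favour of the cDC2s were further receptors and surface genes. *Ffar2*, a receptor of short-chain fatty acids, was at 51.4, 54.2 and 52.3 CPM against 0.142, 0.223 and 0.225 CPM (7.93 ± 0.22). *Mcemp1* was at 211, 209 and 178 CPM against 1.42, 1.34 and 0.824 CPM (7.29 ± 0.17). *Cdh1*, which encodes E-cadherin, was at 120, 125 and 112 CPM against 0.995, 0.595 and 0.449 CPM (7.28 ± 0.20). These 3 genes were all but missing from resting cDC1s. The others were *Trem1*, an amplifier of inflammatory signals, the chemokine receptor *Ccr1*, the protease *Htra3* and the metalloprotease inhibitor *Timp1*, besides *Siglece*, *Cd33* and *Clec4n*. At the other end stood *Gcsam* (1.26, 3.10 and 1.24 CPM against 122, 118 and 117 CPM), the adhesion molecule *Cadm1*, the chemokine receptor *Cxcr3*, *Pianp*, *Gpr141b*, *Sept3*, *Snx22*, *Clec9a*, *Rab7b* and *Agpat3*. All 11 cDC1 markers tested were lower, with a median of −3.64. *Itgax* (CD11c), a surface marker of the sort, was at 249, 239 and 222 CPM against 27.2, 31.4 and 23.8 CPM (3.08 ± 0.10), and *Csf1r*, the receptor of macrophage growth factor, at 142, 129 and 143 CPM against 3.74, 2.31 and 2.55 CPM (5.50 ± 0.15). Both genes were higher in every library of the cDC2s. A floor of 3 UMIs over the group made *Ttc39a* at least 60.4-fold lower in the cDC2s, where it was not seen, and *Iqch* at least 19.7-fold lower. Other lineage genes of dendritic cells were mixed, with 3 of 9 higher, 4 lower and a median of −0.16.

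**Figure D1:**
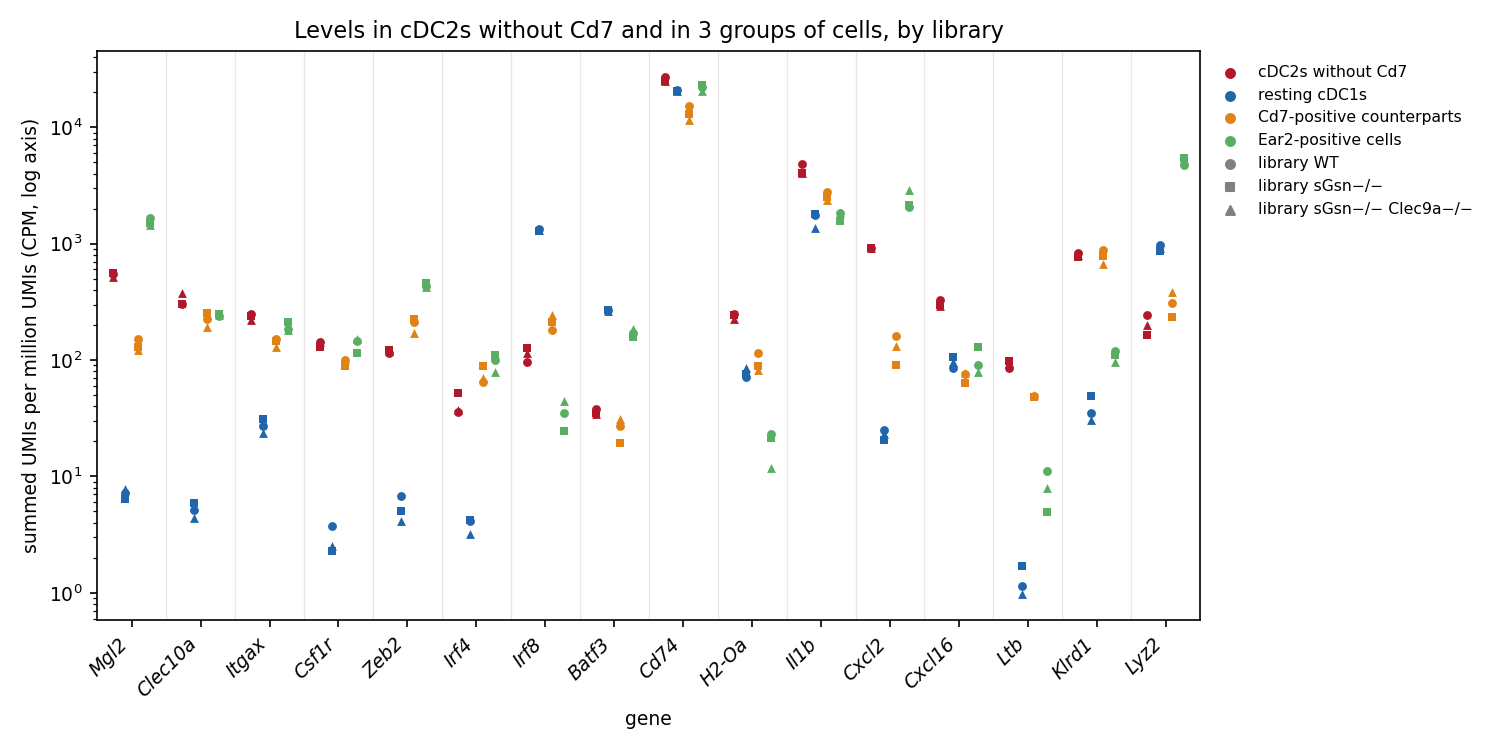
Levels (CPM, log axis) of 16 genes, given from left to right by role, in cDC2s without *Cd7* and in 3 groups of cells (colours), with 1 point per library (shapes); no error bars are drawn. *Mgl2* lies between 516 and 556 CPM in the cDC2s and under 8 CPM in resting cDC1s, and *Irf8* shows the opposite order.

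Of 27 transcription factors listed, 25 were tested; 10 were higher in the cDC2s, 10 lower, and the median was −0.10. *Zeb2*, needed for cDC2 development, was at 115, 122 and 119 CPM against 6.77, 5.06 and 4.12 CPM in resting cDC1s (4.4 ± 0.14). *Irf4*, a factor of cDC2 differentiation and migration, was at 36.0, 52.1 and 37.1 CPM against 4.12, 4.24 and 3.22 CPM (3.32 ± 0.16). These 2 factors were higher in each library. *Klf4* (0.54 ± 0.10) and *Spi1* (0.34 ± 0.09) were slightly higher. *Irf8*, the factor on which cDC1s depend, was at 96.0, 126 and 115 CPM against 1329, 1275 and 1302 CPM (−3.59 ± 0.14). *Batf3*, its partner, was at 37.9, 35.1 and 34.2 CPM against 270, 270 and 266 CPM (−2.93 ± 0.11). *Id2* (−1.63 ± 0.09) and *Zbtb46* (−1.58 ± 0.11) were lower in the cDC2s as well.

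The MHC class II pathway was at least as high as in resting cDC1s for most of its genes. All 15 listed genes were tested; 8 were higher, 2 lower, and the median was 0.32. *H2-DMb2*, a chain of the peptide-loading molecule, was at 289, 311 and 244 CPM against 60.0, 56.6 and 54.2 CPM (2.26 ± 0.12). *H2-Oa*, a chain of H2-O that restrains peptide loading, was at 247, 245 and 225 CPM against 72.0, 76.0 and 84.9 CPM (1.58 ± 0.10). Its partner *H2-Ob* went the other way, at 102, 100 and 83.2 CPM against 184, 166 and 188 CPM (−0.95 ± 0.09). The 2 chains of H2-O thus differed in opposite directions between the same groups. The proteases *Ctss* (1.96 ± 0.11) and *Lgmn* (3.07 ± 0.13) and the thiol reductase *Ifi30* (1.91 ± 0.10), which prepare antigen in endosomes, were higher. *H2-Ab1* (0.32 ± 0.11) and *Cd74* (0.28 ± 0.11) passed narrowly and no longer did so without the WT library (adjusted p = 0.117 and 0.188 from edgeR's quasi-likelihood test, Benjamini-Hochberg adjustment, higher in 2 of 2 libraries). By the same test *Cd74* also failed without the *sGsn-/-* library (adjusted p = 0.106) and with no filter on low counts (0.0518). Among 14 lysosomal genes tested, 9 were higher and 2 lower, with a median of 0.68. *Ctsd*, the aspartic protease, was at 103, 99.0 and 104 CPM against 7.01, 6.40 and 6.89 CPM (3.87 ± 0.11), while *Psap*, the precursor of the saposins, was at 547, 529 and 550 CPM against 3065, 3088 and 3167 CPM (−2.56 ± 0.11). *Cst3*, an inhibitor of cysteine proteases, was also lower (−1.98 ± 0.11).

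The MHC class I pathway, which cDC1s use to cross-present, was lower in the cDC2s. Of 18 genes tested, 13 were lower and 1 higher, with a median of −0.61. *Psmb9*, a subunit of the immunoproteasome, was at 199, 204 and 208 CPM against 643, 679 and 679 CPM (−1.75 ± 0.10). The peptide transporter *Tap1* (−1.55 ± 0.09), the proteasome activator *Psme1* (−1.44 ± 0.08) and *Wdfy4* (−2.34 ± 0.11), needed for cross-presentation, were lower too. The class I heavy chain *H2-K1* was the gene that was higher, at 1110, 1162 and 1129 CPM against 752, 767 and 794 CPM (0.52 ± 0.09).

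Cytokines and chemokines were high in the cDC2s. Of 14 cytokine genes tested, 10 were higher and 3 lower, with a median of 1.74, and of 12 chemokine genes 8 were higher and 3 lower, with a median of 1.52. *Il1b*, the inflammatory cytokine interleukin-1β, was at 4883, 4025 and 4059 CPM against 1749, 1782 and 1352 CPM (1.38 ± 0.14). *Osm*, which encodes oncostatin M, was at 96.4, 95.9 and 97.7 CPM against 1.94, 1.79 and 1.72 CPM (5.67 ± 0.19). *Tnf* was at 42.2, 57.8 and 71.3 CPM against 13.5, 8.63 and 14.4 CPM (2.11 ± 0.19). None of these 3 cytokine genes overlapped between the groups. *Il18*, of the same family as *Il1b*, was at 16.8, 12.9 and 12.8 CPM against 93.4, 102 and 96.9 CPM (−2.74 ± 0.12). *Cxcl2*, which attracts neutrophils, was at 923, 920 and 916 CPM against 25.1, 20.5 and 22.9 CPM (5.29 ± 0.45). *Cxcl16*, ligand of CXCR6, was at 327, 298 and 289 CPM against 86.1, 105 and 96.4 CPM (1.64 ± 0.11). Both chemokines were high in all 3 libraries, whereas *Ccl4* was lower in the cDC2s (−1.39 ± 0.17).

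Receptors for these and other signals were mostly higher. Of 11 chemokine and egress receptors tested, 9 were higher and 1 lower, with a median of 2.36. *Ccr1*, a receptor of CCL3 and CCL5, was at 211, 202 and 185 CPM against 2.75, 1.49 and 2.40 CPM (6.41 ± 0.14). *Ccrl2*, an atypical receptor of chemerin, was at 218, 244 and 250 CPM against 11.2, 10.6 and 12.7 CPM (4.33 ± 0.12). *Ccr2*, the monocyte receptor of CCL2, was closer, at 423, 393 and 410 CPM against 312, 304 and 298 CPM (0.39 ± 0.09). Every library of the cDC2s was above every library of resting cDC1s for these receptors. Of 8 Fc receptor genes 7 were higher, with a median of 1.63, among them *Fcgr1*, the high-affinity receptor of IgG, at 90.1, 84.6 and 99.7 CPM against 2.37, 3.05 and 2.32 CPM (5.12 ± 0.15), and the signalling chain *Fcer1g* (1.89 ± 0.11). Toll-like receptors and adaptors were mixed, with 5 of 14 higher, 6 lower and a median of 0.12. *Tlr2*, which senses bacterial lipoproteins, was at 113, 109 and 112 CPM against 8.90, 7.59 and 8.31 CPM (3.71 ± 0.13), and *Cd14* was higher (3.15 ± 0.16). *Tlr3*, the sensor of double-stranded RNA, was at 12.3, 10.3 and 16.9 CPM against 187, 182 and 203 CPM (−3.91 ± 0.16). Of 14 activation and costimulation genes tested, 10 were higher and 3 lower, with a median of 0.86. The CD28 ligands *Cd80* (2.44 ± 0.11) and *Cd86* (0.46 ± 0.08) and the 4-1BB ligand *Tnfsf9* (3.59 ± 0.18) were higher, and *Cd83* was lower (−0.74 ± 0.12).

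Genes of precursors were higher than in resting cDC1s, 17 of the 20 listed, and none was lower, with a median of 2.94. *Ifitm1*, an interferon-induced membrane protein, was at 3758, 3474 and 3407 CPM against 64.8, 71.3 and 40.9 CPM (5.88 ± 0.33). *Il7r*, the receptor of interleukin-7, was at 86.7, 74.3 and 79.1 CPM against 1.80, 1.04 and 0.824 CPM (5.90 ± 0.19). *Cd34* was higher as well (5.17 ± 0.18), and so were *S100a4* (5.63 ± 0.14) and *S100a6* (3.03 ± 0.09), calcium-binding proteins, among 13 tested S100, annexin and related genes of which 4 were higher and 5 lower (median −0.11). *Klrd1*, which encodes the NK cell receptor subunit CD94, was at 835, 772 and 806 CPM against 35.0, 49.0 and 30.5 CPM (4.37 ± 0.14). Thinning to 5000 UMIs left out shallower cells, 20 of 763 cDC2s and 517 of 2953 NK cells. In the thinned cells 87.1%, 84.6% and 86.2% of the cDC2s held *Klrd1* (92.4%, 95.6% and 94.2% unthinned). The same was true of 92.9%, 93.8% and 92.7% of NK cells (98.5%, 97.9% and 96.5% unthinned, with median depths of 11479, 9645 and 8648 UMIs). The *Klrd1* shares of the cDC2s were thus near those of NK cells, with no background share from another group given beside them. The 10 NK cell markers summed to 919, 968 and 965 CPM, most of it *Klrd1*, and the defining markers *Ncr1* (3.15, 6.19 and 4.12 CPM), *Klrb1c* (1.73, 5.67 and 4.12 CPM) and *Eomes* (0.944, 2.58 and 2.06 CPM) were near 0. *Gzma*, also among the 10, was not, at 34.5, 89.8 and 70.0 CPM, and was seen in 8.01%, 24.4% and 9.95% of the cells. Against resting cDC1s 9 of 9 NK cell markers tested were higher (median 2.01; sums there 54.4, 99.0 and 58.7 CPM). Of 8 monocyte markers tested 7 were higher and none lower (median 2.47; sums there 663, 746 and 712 CPM). Of 9 macrophage markers tested 5 were higher and 1 lower (median 1.84; sums there 282, 266 and 274 CPM). Of 10 plasmacytoid markers tested 5 were higher and 1 lower (median 1.07; sums there 305, 329 and 302 CPM, led by *Bst2*). Of 4 T cell markers tested 3 were higher and none lower (median 1.58; sums there 4.93, 10.1 and 5.99 CPM, led by *Trbc1*). The part of such cells in the differences from resting cDC1s was not tested.

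Heat shock genes were lower in the cDC2s for 10 of 11 tested, and none was higher, with a median of −0.48; *Hspa8* was at 1944, 1886 and 1902 CPM against 3711, 3300 and 3209 CPM (−0.87 ± 0.10). Immediate early genes, which also respond to tissue digestion, were higher for 5 of 21 and lower for 11, with a median of −0.38. *Nfkbia* (2.50 ± 0.12) and *Nfkbiz* (3.33 ± 0.13), targets and regulators of NF-κB, were higher, and *Klf2* (−2.60 ± 0.17) and *Fos* (−0.87 ± 0.11) lower. Of 25 genes of the type I interferon response, 13 were higher and 8 lower, with a median of 0.40. *Rtp4* was higher (5.05 ± 0.28) and *Stat2*, a signalling factor of the pathway, lower (−1.80 ± 0.14). *Isg15* was higher against resting cDC1s (104, 140 and 105 CPM against 83.5, 90.7 and 79.9 CPM; 0.40 ± 0.15). It was lower against all deposited cDC1s (−0.97), and it no longer passed without the *sGsn-/-* library (adjusted p = 0.0501 from edgeR's quasi-likelihood test, Benjamini-Hochberg adjustment, higher in 2 of 2 libraries), in thinned cells (0.0506) or with DESeq2 (0.0807). Of 13 integrin and adhesion genes tested 2 were higher and 6 lower (median −0.12), among the latter *Itgal*, a chain of LFA-1 (−3.18 ± 0.15), and of 12 cell cycle genes 6 were higher and 3 lower (median 0.26), in cells chosen to lack *Mki67*. *Gsn* was 1.03 ± 0.10 higher.

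The question what separates these cells from pre-cDC-like cells was put to 687 *Cd7*-positive counterparts (356, 159 and 172 cells; median 11422, 11517 and 9859 UMIs), which met every criterion except that they held 2 or more *Cd7* UMIs. The cDC2s without *Cd7* had more MHC class II, chemokine and lectin transcripts and fewer plasmacytoid and precursor transcripts. Of 9382 genes tested 23.8% passed, with 1207 higher in the cells without *Cd7* (12.9%) and 1023 lower (10.9%), and the median over all genes was −0.01. Without TMM factors, which correct the library sizes for composition, the median of all genes shifted by −0.15, and the share of the called genes that were higher fell from 54.1% to 29.8%. Without the WT library 1312 genes passed instead of 2232 (both with the genes of the choice), and with cells thinned to equal depth 1442.

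The MHC class II pathway differed in 10 of 15 genes, all higher without *Cd7*, with a median of 1.11. *H2-Ab1*, a β chain of MHC class II, was at 14181, 13440 and 13957 CPM against 6934, 5907 and 5439 CPM in the *Cd7*-positive counterparts (1.34 ± 0.11, adjusted p = 9.68e-09 from edgeR's quasi-likelihood test, Benjamini-Hochberg adjustment, higher in 3 of 3 libraries). *Cd74* was at 27264, 24802 and 25101 CPM against 15140, 12910 and 11625 CPM (1.11 ± 0.11). *Ciita*, the transactivator of these genes, was at 177, 175 and 178 CPM against 132, 126 and 87.7 CPM (0.75 ± 0.10). The libraries of the 2 groups did not overlap for any of these 3 genes, and *H2-Eb1* (1.48 ± 0.12) and *H2-Oa* (1.45 ± 0.11) were higher too. MHC class I genes were 2 higher and 7 lower of 18 tested (median −0.16).

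Chemokines and lectins followed. Of 12 chemokines 7 were higher without *Cd7* and 2 lower (median 1.95). *Cxcl2* was at 923, 920 and 916 CPM against 162, 91.3 and 132 CPM (2.96 ± 0.41), and *Cxcl16* at 327, 298 and 289 CPM against 75.9, 62.9 and 76.7 CPM (2.23 ± 0.12). *Ccl2*, which attracts monocytes (2.58 ± 0.22), and *Ccl17*, which attracts T cells (2.23 ± 0.44), were also among the 10 largest differences, with *Dcstamp*, *Fcgr3*, *Creb5*, *Clec5a*, *Htra3* and *F11r*. *Dcstamp*, which encodes a membrane protein of cell fusion, led with 71.7, 55.2 and 53.6 CPM against 10, 3.99 and 8.02 CPM (3.10 ± 0.23). For all of these, each library without *Cd7* was above each library with it. Of 20 lectins and surface genes 14 were higher and 2 lower (median 1.07): *Mgl2* was at 544, 556 and 516 CPM against 153, 129 and 122 CPM (2.14 ± 0.11) and *Clec10a* was 0.71 ± 0.11 higher, whereas *Cd209d* was at 42.9, 54.7 and 60.2 CPM against 273, 411 and 319 CPM (−2.55 ± 0.17). Of 14 cytokines 7 were higher and 3 lower (median 0.71), with *Il1b* 0.90 ± 0.14, *Il1a* 2.24 ± 0.28 and *Osm* 1.20 ± 0.16 higher and the growth factor *Areg* lower (−1.61 ± 0.30), the last not with DESeq2 (adjusted p = 0.191).

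Among the transcripts lower without *Cd7* were those of plasmacytoid cells and precursors. All 10 plasmacytoid markers were lower, with a median of −3.38, and their sum was 394, 441 and 354 CPM against 1750, 2363 and 1968 CPM. *Klk1*, a kallikrein, was not seen in the cDC2s and at 46.4, 55.9 and 52.6 CPM in the counterparts, at least 179-fold lower against the floor of 3 UMIs over the group, and the median is the same with it at this bound. *Ccr9*, the gut-homing receptor, was at 4.25, 9.29 and 2.06 CPM against 107, 116 and 98.7 CPM (−4.36 ± 0.19). *Siglech*, a surface lectin of plasmacytoid cells and pre-cDCs, was at 13.7, 27.3 and 9.48 CPM against 145, 221 and 186 CPM (−3.39 ± 0.21). For each of these 3 genes the groups were far apart in every library. *Tcf4*, the factor that sets plasmacytoid identity, was at 112, 142 and 101 CPM against 408, 564 and 380 CPM (−1.79 ± 0.13). Of 20 precursor genes 11 were lower and 2 higher (median −1.33). *Ly6c2*, a surface protein of monocytes and precursors, was at 38.5, 46.4 and 30.9 CPM against 297, 436 and 483 CPM (−3.25 ± 0.17), and *Plac8* (−2.06 ± 0.17) was lower. The 2 that were higher were *Cd34* (40.4, 37.1 and 40.8 CPM against 10.3, 10.5 and 8.52 CPM; 2.16 ± 0.17) and *Kit* (1.18 ± 0.12), so genes of progenitors did not all go with *Cd7*. *Slpi*, *Cd300c*, *Cox6a2*, *Upb1*, *Pi16*, *Gm34680*, *Lefty1* and *Cyp7b1* completed the 10 largest differences on this side.

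Transcription factors were 7 higher and 10 lower of 25 (median −0.06). *Id2*, an inhibitor of TCF4, was at 155, 175 and 162 CPM against 54.9, 60.9 and 60.6 CPM (1.64 ± 0.11), and *Klf4* (0.71 ± 0.10) was higher. *Irf4* was at 36.0, 52.1 and 37.1 CPM against 64.1, 88.8 and 70.2 CPM (−0.71 ± 0.14), and *Irf8* (−0.77 ± 0.14) and *Zeb2* (−0.63 ± 0.11) were lower. The lineage factors *Irf4* and *Irf8* were thus both lower in the cells without *Cd7*. Of 11 chemokine and egress receptors 4 were higher and 4 lower (median 0.01), with *Ccrl2* (2.19 ± 0.12) and *Cxcr4*, the receptor of CXCL12 (1.16 ± 0.13), higher. Of 14 Toll-like receptors and adaptors 4 were higher and 1 lower (median 0.43), among them *Cd14* at 441, 380 and 383 CPM against 145, 141 and 160 CPM (1.59 ± 0.16) and *Tlr2* (0.75 ± 0.12). Of 14 activation genes 5 were higher and 3 lower (median 0.05): *Cd80* (0.94 ± 0.12) and *Cd86* (0.77 ± 0.09) were higher and *Cd40*, the receptor of the T cell ligand CD154, was lower (−0.91 ± 0.16). Among 8 Fc receptor genes 4 were higher and 1, *Fcgrt*, lower (median 0.76). Immediate early genes were 10 higher and 1 lower of 21 (median 0.33), led by *Fosb* (1.21 ± 0.12) and *Egr1* (1.12 ± 0.15), and heat shock genes 4 higher and none lower of 11 (median 0.32); *Hspa1a*, whose near-identical copy *Hspa1b* may share its counts, was 1.03 ± 0.28 higher and did not pass without the *sGsn-/-* library (adjusted p = 0.117 from edgeR's quasi-likelihood test, Benjamini-Hochberg adjustment, higher in 2 of 2 libraries) or with DESeq2 (0.0537). The galectin *Lgals1* was lower (−1.44 ± 0.11) and the tetraspanin *Cd9* higher (1.78 ± 0.12). Interferon genes were 5 higher and 7 lower of 25 (median 0.40). *Klrd1*, at 880, 791 and 667 CPM in the counterparts, did not pass, while 5 of 9 NK cell markers tested were lower and none higher (median −1.25). Of 8 monocyte markers tested 4 were lower and 1 higher (median −1.03), with sums in the counterparts of 2485, 3238 and 2879 CPM, led by *Plac8*. Of 4 T cell markers tested 3 were lower and none higher (median −1.62), with sums there of 83.8, 101 and 97.7 CPM, led by *Cd8b1*. Both B cell markers tested were lower (median −1.70), with sums there of 158, 224 and 157 CPM, led by *Ighm*. Of 9 macrophage markers tested 5 were higher and 1 lower (median 0.88), with sums there of 445, 371 and 420 CPM, led by *Cd68*. Of 11 cDC1 markers tested 6 were higher and 1 lower (median 0.67), with sums there of 468, 462 and 498 CPM, led by *Irf8*. The part of such cells in this comparison was not tested. *Gsn* was 1.06 ± 0.11 higher.

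The last comparison set the cDC2s beside *Ear2*-positive cells, in which *Ear2*, a ribonuclease gene, goes with *Retnla* and macrophage transcripts. Counterparts that met the whole rule but for *Ear2* numbered 31, 9 and 12 cells, too few for the planned comparison, so 265 cells with 2 or more *Ear2* UMIs and any *Flt3* count were taken (136, 32 and 97 cells; median 18362, 18050 and 16974 UMIs), a choice made after these numbers were seen. Only 52 of these 265 cells held *Flt3*, which all the cDC2s held, so the groups differed by choice in *Flt3* as well as *Ear2*. The part of *Flt3* in the differences was not tested. The cDC2s had more *Ifitm1*, *Kit*, *Klrd1*, *H2-Oa* and *Ltb* and fewer macrophage and chemokine transcripts. Of 9663 genes tested 39.6% passed, 1929 of them higher in the cDC2s (20%) and 1899 lower (19.7%), with a median over all genes of −0.00. Without TMM factors the median shifted by −0.12 and the share of the called genes that were higher went from 50.4% to 37.7%. With the genes of the choice included 3833 genes passed, against 2401 without the WT library and 2115 with thinned cells.

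*Retnla*, a resistin-like protein of alternatively activated macrophages, was at 2.20, 0.516 and 4.94 CPM in the cDC2s and at 913, 690 and 638 CPM in *Ear2*-positive cells (−8.09 ± 0.27, adjusted p = 1.16e-15 from edgeR's quasi-likelihood test, Benjamini-Hochberg adjustment, lower in 3 of 3 libraries). *Lyz2*, the lysozyme of myeloid cells, was at 245, 164 and 202 CPM against 4749, 5493 and 5360 CPM (−4.54 ± 0.16). *Mrc1*, the mannose receptor, was at 32.3, 32.0 and 30.9 CPM against 630, 647 and 610 CPM (−4.19 ± 0.11). No library of the 2 groups came near the other for these genes. *Fcrls* (−8.26 ± 0.24), *F10* (−7.89 ± 0.33), the lipoprotein lipase *Lpl* (−6.70 ± 0.19), *Plxdc2*, *Pla2g7*, *Lyz1*, *Hr*, *Fn1* and *Gfra2* were, with *Retnla*, the 10 largest differences on this side. Of 13 chemokines tested 7 were lower and 2 higher (median −1.26): *Ccl6* was at 65.8, 60.4 and 81.6 CPM against 1371, 1469 and 1374 CPM (−4.23 ± 0.15), *Ccl9* (−3.80 ± 0.19), *Ccl2* (−2.77 ± 0.13) and *Cxcl2* (−1.26 ± 0.14) were lower and *Cxcl16* was higher (1.82 ± 0.13). Macrophage markers summed to 1281, 1075 and 1200 CPM in *Ear2*-positive cells, led by *Mrc1*, and of 9 tested 5 were lower in the cDC2s and 2 higher (median −1.53). Monocyte markers summed to 3051, 3159 and 2963 CPM in *Ear2*-positive cells, led by *Fn1*, against 1457, 1356 and 1415 CPM in the cDC2s. Of 8 tested 5 were higher in the cDC2s and 3 lower (median 0.47).

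The cDC2s were higher in genes of precursors and of MHC class II loading. Of 20 precursor genes 16 were higher and 1 lower (median 1.79). *Ifitm1* was at 3758, 3474 and 3407 CPM against 128, 141 and 238 CPM (4.48 ± 0.19). *Kit* was at 96.0, 102 and 94.8 CPM against 8.80, 4.92 and 6.24 CPM (3.84 ± 0.17). *Klrd1* was at 835, 772 and 806 CPM against 119, 110 and 96.4 CPM (3.0 ± 0.13). All 3 genes kept the groups apart in each library. The other genes among the 10 largest differences were *Ffar2*, *Trp53i11*, *Cdh1*, *Pdlim7* and *Actn1*, which encodes an actin cross-linker, besides *H2-Oa* and *Ltb*. *Siglech* was not seen in *Ear2*-positive cells, at least 25.3-fold higher in the cDC2s against the floor of 3 UMIs over the group, and the median of the precursor genes is the same with it at this bound. *Ly6d*, also a precursor gene on the list and not seen there, enters that median at its fitted value. Of 15 MHC class II genes 10 were higher and 1 lower (median 0.49), with *H2-Oa* at 247, 245 and 225 CPM against 23.3, 21.3 and 11.9 CPM (3.78 ± 0.17), *H2-Ob* 2.05 ± 0.14 higher and *H2-Ab1* 0.49 ± 0.09 higher; *Cd74* (0.34 ± 0.09) did not pass without the WT library (adjusted p = 0.0900 from edgeR's quasi-likelihood test, Benjamini-Hochberg adjustment, higher in 2 of 2 libraries). *Il1b* was at 4883, 4025 and 4059 CPM against 1848, 1561 and 1821 CPM (1.42 ± 0.10). *Ltb*, which encodes lymphotoxin β, was at 84.6, 99.0 and 95.2 CPM against 11.1, 4.92 and 7.94 CPM (3.44 ± 0.17). Of 14 cytokines tested, however, 4 were higher and 6 lower (median −0.40). Both *Il1b* and *Ltb* were higher in each library, as were *Cd86* (1.04 ± 0.08), *Fcgr1* (1.54 ± 0.17) and *Gpr183*, a receptor of oxysterols that places cDC2s in the spleen (2.53 ± 0.14). Of 22 lectins and surface genes 12 were lower and 5 higher (median −0.83): *Mgl2* was at 544, 556 and 516 CPM against 1672, 1492 and 1450 CPM (−1.40 ± 0.08), *Clec4b1* was 3.61 lower on the log2 scale (−3.61 ± 0.17), and *Clec10a* (0.54 ± 0.10) was higher in all 3 libraries but did not pass in thinned cells. Among 25 transcription factors 10 were higher and 9 lower (median −0.17); *Irf8* (1.70 ± 0.16) was higher, and *Zeb2* (−1.77 ± 0.10), *Irf4* (−1.12 ± 0.15), *Batf3* (−2.15 ± 0.11) and *Klf4* (−0.59 ± 0.10) were lower. Lysosomal genes were 4 higher and 10 lower of 15 (median −0.55), with *Psap* at 547, 529 and 550 CPM against 2788, 3108 and 3085 CPM (−2.35 ± 0.09). Immediate early genes were 3 higher and 11 lower of 21 (median −0.34), *Dusp1* among the latter (−1.50 ± 0.12). MHC class I genes were 9 higher and 2 lower of 18 (median 0.26), and interferon genes 1 higher and 5 lower of 25 (median −0.21). Of 9 NK cell markers tested 5 were higher and none lower (median 1.98), with sums of 133, 143 and 224 CPM in *Ear2*-positive cells, led by *Klrd1*. Of 10 plasmacytoid markers 5 were higher and 1 lower, with sums there of 308, 298 and 294 CPM, led by *Bst2*, and with *Siglech* and *Ly6d* not seen there. These 2 ratios have no finite value, and with both genes at their fitted values the median was 2.42. Of 11 cDC1 markers 6 were higher and 4 lower (median 1.05), with sums there of 970, 975 and 1014 CPM, led by *Naaa*. The part of such cells here was not tested. *Gsn* was 0.54 ± 0.08 higher.

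cDC2s are often divided by *Tbx21*-associated genes, called cDC2A, and by *Clec10a*-associated genes, called cDC2B, and a triad of *Tbc1d4*, *Ccr6* and *Ltb* was added here. Against resting cDC1s, 2 of 4 tested cDC2A genes were higher and 1 lower (median 2.06), and 5 of 7 cDC2B genes were higher and 2 lower (median 4.65). Against the *Cd7*-positive counterparts 2 of 4 cDC2A genes were higher and 2 lower (median 0.15), and 3 of 7 cDC2B genes were higher and 1 lower (median 0.01). Against *Ear2*-positive cells 2 of 4 cDC2A genes were higher and 1 lower (median 0.50). Of 7 cDC2B genes 2 were higher there and 3 lower (median 0.09), with sums of 1774, 1635 and 1751 CPM against 7884, 8421 and 8227 CPM in *Ear2*-positive cells, led by *Lyz2*. *Tbc1d4* was at 91.1, 69.6 and 52.3 CPM in the cDC2s, 53.7, 41.4 and 36.1 CPM in the counterparts and 15.7, 39.3 and 15.9 CPM in *Ear2*-positive cells, and was higher in the cDC2s in both comparisons (0.85 ± 0.19 and 2.07 ± 0.24) and lower than in resting cDC1s (−0.94 ± 0.15). *Ccr6*, the receptor of CCL20, was at 11, 17.5 and 10.7 CPM and higher than in resting cDC1s (5.19 ± 0.36), *Ear2*-positive cells (5.01 ± 0.64) and counterparts (1.0 ± 0.30), the last not without the *sGsn-/-* library (adjusted p = 0.181) or the *sGsn-/- Clec9a-/-* library (0.0688; edgeR's quasi-likelihood test, Benjamini-Hochberg adjustment, higher in 2 of 2 libraries each), nor against counterparts with 1 or more *Cd7* UMIs (0.0952). *Ltb* was 6.13 ± 0.13 higher than in resting cDC1s and 1.06 ± 0.10 higher than in the counterparts. At least 2 of the 3 genes were seen in 126, 41 and 39 of the cDC2s (28.8%, 30.4% and 20.4%) and all 3 in 29, 6 and 8. Cells with *Tbc1d4* or *Ccr6* held more *Mgl2* than cells with neither (643, 753 and 573 CPM against 471, 397 and 480 CPM). They held less *Ccr2* (335, 245 and 350 CPM against 487, 512 and 448 CPM) and less *Lyz2* (133, 85.4 and 173 CPM against 327, 227 and 220 CPM). The direction of these 3 genes was the same in the 3 libraries, and no test was made, as cells of 1 library are not replicates.

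Variation among the cells was measured as the variance of counts per cell over that of Poisson counting at the depth of each cell, in each library. Over 4361 genes at 20 CPM or more the median of the lowest of the 3 ratios was 1.10, and 444 genes (10.2%) were at 2 or more. *Cxcl2* had ratios of 103, 86.0 and 82.7: it was seen in 50.8%, 45.9% and 46.6% of the cells, and the 10% of cells with the most held 77.0%, 83.6% and 74.1% of its UMIs. *Il1b* had ratios of 40.3, 45 and 32.3 and was seen in 98.2%, 94.1% and 97.9%, and *Ifitm1* had 58.3, 55.5 and 47.5. *Cxcl2* was thus concentrated in a minority of the cells, and *Il1b* was spread over nearly all of them at unequal levels. For *Ccl17* the top 10% held 98.9%, 96.0% and 96.9% of the UMIs. The 20 genes with the highest ratios also held *Gm42418*, *Gzma*, *Malat1*, *Fth1*, *Cst3*, *Ccl4*, *Tmsb4x*, *Hspa1a*, *Cd74*, *Mt1*, *Actb*, *Cxcl10*, *Egr1*, *Ifi27l2a*, *Fos* and *Jun*. *Gm42418* overlaps *AY036118* on the other strand, and the 2 cannot be told apart with certainty.

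*Cd209a*, the leading gene of the choice, ordered the cells of each library into 3 parts of equal number, with 237, 244 and 230 CPM in the lowest and 1507, 1433 and 1637 CPM in the highest part. Median depth was 14886, 14988 and 12614 UMIs in the lowest and 13091, 13933 and 11096 UMIs in the highest part. The bearing of depth on the differences below was not tested. Of 241 listed genes at 20 CPM or more in a part, 2 were at least 2-fold higher and 6 at least 2-fold lower on average in the highest part with the same direction in all 3 libraries, and the median log2 ratio was 0.05. *Cd209d*, a neighbour in the same lectin family, was at 16.7, 18.3 and 11.4 CPM in the lowest and 75.9, 98.6 and 116 CPM in the highest part. *Il7r* was at 113, 101 and 110 CPM in the lowest and 52.0, 60.2 and 45.2 CPM in the highest part. *Kit* was at 113, 155 and 106 CPM in the lowest and 65.8, 83.6 and 72.6 CPM in the highest part. *Cd209d* thus went with *Cd209a*, and the 2 cytokine receptor genes went against it. *Kit* was not among the 2-fold differences. The other gene at least 2-fold higher was *Ly6c2*, and those at least 2-fold lower besides *Il7r* were *Hspb1*, *Gzma*, *Nkg7*, *Ccl5* and *Spp1*, of which *Gzma* and *Nkg7* are NK cell markers. *Hspb1* rested on the *sGsn-/-* library (87.3 CPM in the lowest and 5.02 CPM in the highest part, with at most 2.28 CPM in the others), and *Ly6c2* hardly differed in the WT library (40.5 and 43.0 CPM).

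**Figure D2:**
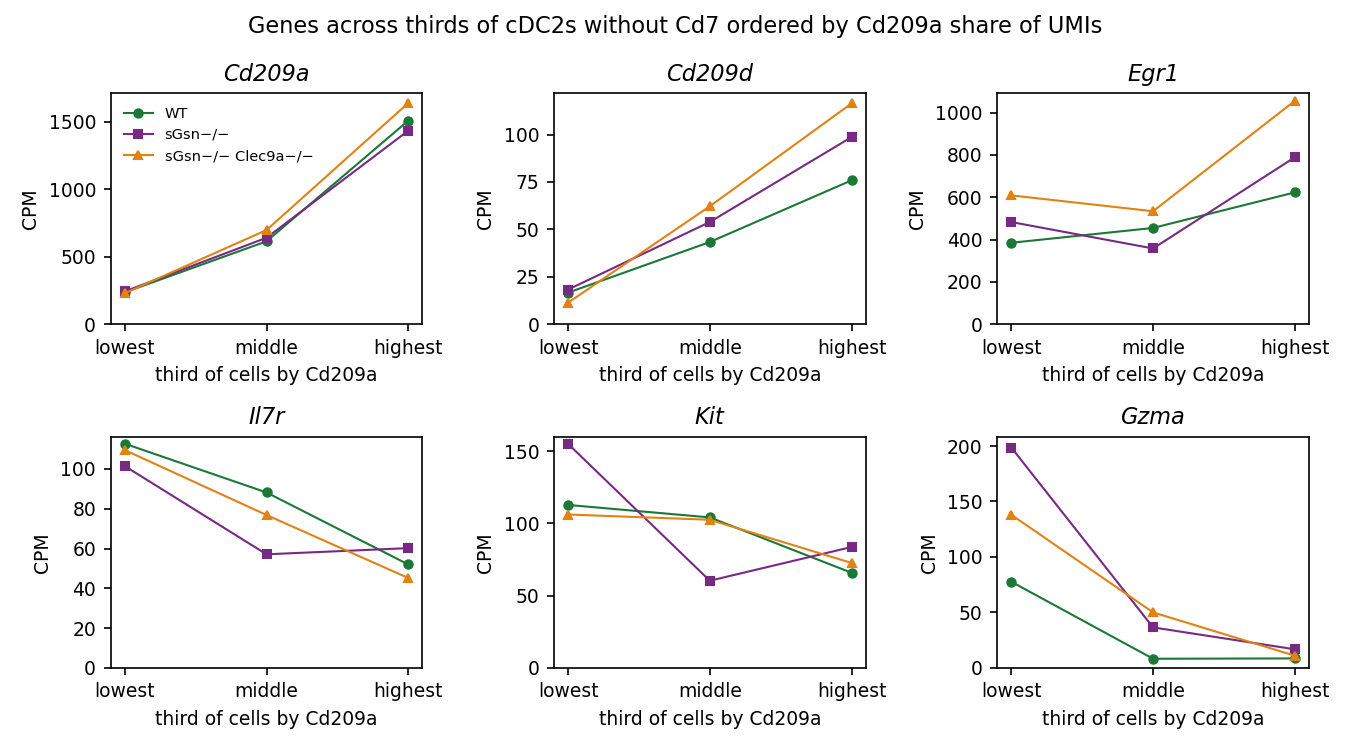
Levels (CPM) of 6 genes in 3 equal parts of the cDC2s without *Cd7* ordered by the *Cd209a* share of their UMIs, with 1 line per library (45 to 146 cells a point). *Cd209d* climbs from the lowest to the highest part in each library and *Il7r* is lower in the highest than in the lowest, with no test made.

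The share of these cells differed between the libraries. Of the barcodes outside the cDC1 table that passed the filter, they were 4.89% (4.45 to 5.36) for WT, 2.53% (2.13 to 2.99) for *sGsn-/-* and 3.13% (2.70 to 3.59) for *sGsn-/- Clec9a-/-*, with exact Clopper-Pearson 95% intervals. The WT share was thus above both others, whose intervals overlap, and the order of the 3 values was the same in all 10 settings tried. With the rule on cells thinned to 5000 UMIs the WT interval (1.87 to 2.51) overlapped that of *sGsn-/- Clec9a-/-* (1.40 to 2.11). It stayed above that of *sGsn-/-* (1.11 to 1.82). Each genotype had 1 library, so no genotype difference was tested, and the intervals cover counting error only. Cells with Y-linked transcripts but no *Xist* made up 21.4% (17.4 to 25.7), 28.9% (21.0 to 37.9) and 30.4% (23.6 to 37.9) of those with 1 kind among the cDC2s. Among resting cDC1s they were 21.4%, 38.1% and 18.8%, among *Cd7*-positive counterparts 18.4%, 33.8% and 28.9% and among *Ear2*-positive cells 7.81%, 8.33% and 8.70%. Males were 25 of 37, 15 of 31 and 10 of 27 of the mice. The order of the libraries thus differed between the groups of cells, and *Ear2*-positive cells were below the cDC2s in each library, so that comparison sets cells of unequal sex make-up side by side. Of 4 sex-linked genes tested in it 2 were higher in the cDC2s and none lower (median 1.47), and the cause was not tested.

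Between genotypes few genes stood apart, and most of those were no longer counted once the 3 highest cells of each gene were left out. Such a step removes a larger part of the 135 *sGsn-/-* cells than of the 437 WT and 191 *sGsn-/- Clec9a-/-* cells. It also brings genes under 50 CPM, so the fall in number alone does not show that few cells held the differences. In *sGsn-/-* over WT, 10 of 2600 genes at 50 CPM or more in either library differed at least 2-fold (0.385%), 9 upward (*Ccl17*, *Cxcl10*, *Ero1l*, *Gzma*, *Gzmc*, *Ifit1*, *Ifit3*, *Rsad2* and *Xcl1*) and 1 downward. In *sGsn-/- Clec9a-/-* over *sGsn-/-*, 13 of 2585 did so (0.503%), all downward, among them *Ccl17*, *Cxcl10*, *Ero1l*, *Gzmc*, *Ifit1*, *Rsad2*, *Xcl1* and *Cebpb*. The 2 contrasts share the *sGsn-/-* library. The median absolute log2 ratio was 0.11 and 0.14, against 0.08 and 0.10 in resting cDC1s, where 2 of 2496 and 5 of 2456 genes differed 2-fold.

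*Cxcl10*, an interferon-induced chemokine (ENSMUSG00000034855, chromosome 5, 92346638 to 92348889, minus strand), was at 47.4 CPM (42.2 to 53.0, exact Poisson 95% interval) in WT, 343 CPM (317 to 370) in *sGsn-/-* and 39.6 CPM (32.0 to 48.3) in *sGsn-/- Clec9a-/-* cDC2s. It was seen in 48, 16 and 16 cells, and in the *sGsn-/-* library 3 cells held 610 of its 664 UMIs. Without the 3 highest cells of each library the log2 ratio of *sGsn-/-* over WT went from 2.84 to 0.39. Among cells without NK marker UMIs (319 in WT and 55 in *sGsn-/-*) the ratio was −3.85. The *Cxcl10* ratio was 2.84 without the cells of high doublet score, 2.92 in thinned cells and 0.51 (0.18 to 0.84) in *Cd7*-positive counterparts. The high *Cxcl10* sum thus lay mostly in 3 cells. The interferon genes *Ifit1* (2.54 and 0.47 without the 3 highest cells) and *Rsad2* (2.18 and −0.59) behaved alike, and in the counterparts their ratios were 2.09 and 1.63. *Gzmc*, a granzyme, was at 2.52, 50 and 3.30 CPM (4.07, and 2.09 without the 3 highest), and *Xcl1*, a chemokine of lymphocytes, at 5.03, 54.7 and 7.83 CPM (3.32, and 1.83 without). Without the cells of high doublet score the ratios of *Gzmc* and *Xcl1* were 1.92 and 3.16. In resting cDC1s they were 1.54 and 1.77, and in the counterparts 1.81 and 0.10. NK cell markers other than *Klrd1* were seen in 27.0%, 59.3% and 32.5% of the cells, with 4 cells at 10 or more such UMIs in each library, of which 4, 3 and 1 had a high doublet score. In cells without these UMIs the ratio was 0.36 for *Xcl1* and 2.18 for *Gzmc*.

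*Cebpb* did not depend on few cells and was not particular to the cDC2s. *Cebpb*, a factor of myeloid differentiation and inflammation, was at 135 CPM (119 to 152) in *sGsn-/-* and 37.9 CPM (30.6 to 46.5) in *sGsn-/- Clec9a-/-* cDC2s, a log2 ratio of −1.82, with −1.75 without the 3 highest cells, −1.64 in resting cDC1s and −1.69 in the counterparts. The gene thus differed by a like amount in the 3 kinds of cells of the same libraries. Without the 3 highest cells of each gene, 1 gene at 50 CPM or more was 2-fold apart in the first contrast and 7 in the second. Of these 7, *1810026B05Rik*, *Cebpb*, *Paxbp1* and *Ppp1r14b* were among the 13 above, and *Ccl9*, *Clec4a3* and *Ube2m* were not; 2 of the 7 went upward. *Gzmc* and *Xcl1* kept ratios above 2-fold but fell under 50 CPM. The largest ratios upward in the second contrast were *Clec4a3* (0.91), *Egr2* (0.88), *AY036118* (0.84), *Ccl9* (0.83) and *Lars2* (0.74), and among the lowest in the first were *AC149090.1* (−0.83), *Gm10076* (−0.67), *Clec4a3* (−0.65) and *Lyz2* (−0.58).

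**Figure D3:**
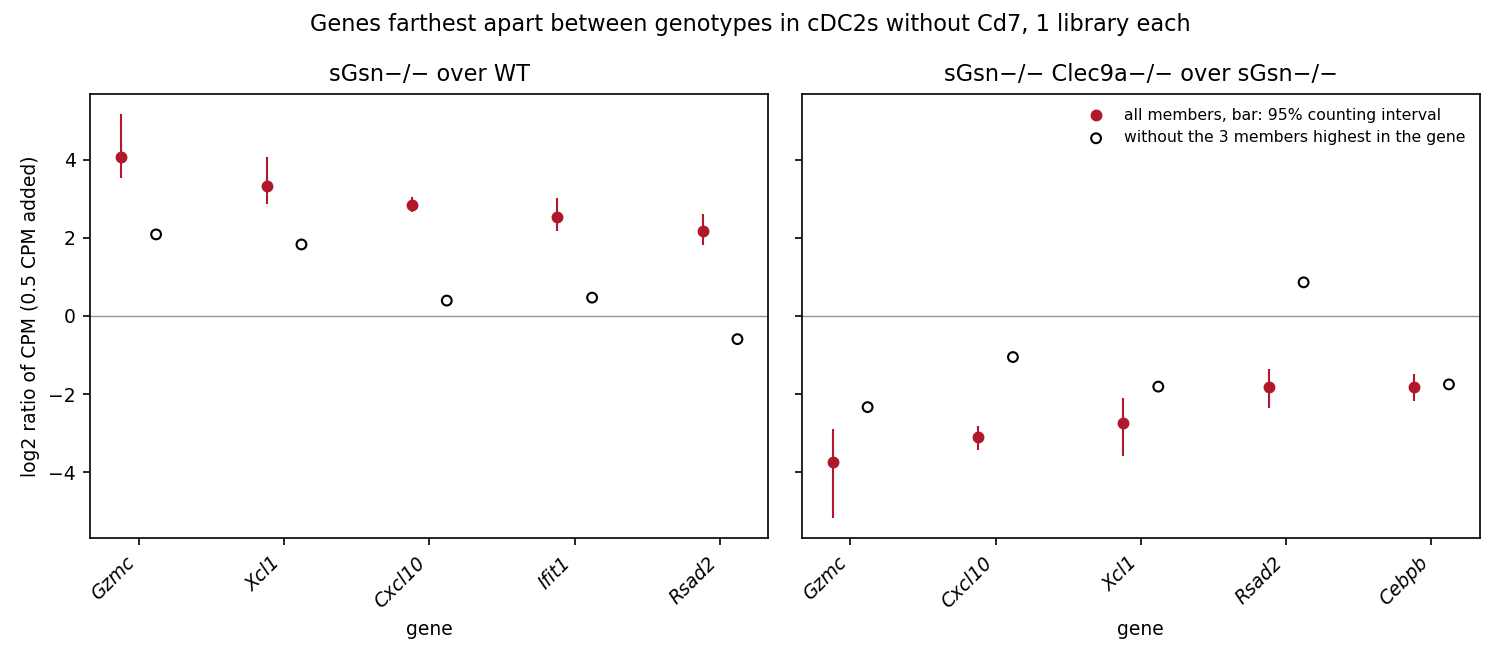
Log2 ratio of CPM between genotypes (0.5 CPM added) for the 5 highest genes of the first and the 5 lowest of the second contrast in cDC2s without *Cd7*, 1 library a genotype; filled points are all cells with 95% counting intervals as bars, open points leave out the 3 cells of each library with the most UMIs of the gene. *Cxcl10* moves from 2.84 to 0.39 in the first contrast, and *Cebpb* stays near −1.8 in the second.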

How the data were processed

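Raw UMI counts per gene and barcode were deposited by the authors for 3 libraries (Cell Ranger 6.0.1, mm10), with a table of 5806 cDC1s and their clusters made with Seurat. These counts were used without the authors' integration. UMIs of the cells of a group were summed per library and compared in fits of 4 groups and 3 libraries (1 fit with the 52 planned *Ear2*-positive counterparts for the first 2 comparisons, 1 with the 265 *Ear2*-positive cells for the last) with edgeR 4.0.16 in R 4.3.3 (TMM factors, filterByExpr, quasi-likelihood F-test, Benjamini-Hochberg adjustment at 0.05). *Cd7*-positive counterparts had 2 or more *Cd7* UMIs, NK cells at least 1 *Ncr1* and 1 *Klrb1c* UMI. The sums of the groups in 1 library stem from 1 pool of mice and are thus paired; their deviations correlated at −0.00233 to 0.185 over genes, and a fit with libraries as blocks was among the alternatives. Others were fits of only the 2 groups compared, DESeq2 1.42.0, no TMM factors, no low-count filter, each library left out, cells thinned to 5000 UMIs, other thresholds, and doublets left out. Cells with fewer than 5000 UMIs were left out of the thinned setting. Scrublet in scanpy 1.11.5 (Python 3.11.15) called no doublet in any library, its automatic threshold lying above the highest score, so the top 6% were taken.

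Genes were named by a rule: those of the choice and of gene lists by role, the 10 largest and 10 smallest changes of each comparison at 50 CPM or more with 1 direction in all 3 libraries, the 5 largest and 5 smallest genotype ratios, the 20 most variable and the 20 most abundant genes. Members and lists were chosen with earlier results of these data known. Some genes that this rule names are not reported here. Levels are tested between groups; the most abundant gene of a group or list is named by UMIs, uncorrected for transcript length. Positions are those of GENCODE M21 on GRCm38.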

Additional observations from a re-analysis of the deposited data

Results flagged for a closer look

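*Cxcl10* was higher in *sGsn-/-* than in WT cDC2s without *Cd7* (log2 ratio 2.84), and lower in resting cDC1s of the same libraries (−1.17), while it was 0.51 in *Cd7*-positive counterparts. The difference between them was not tested, with 1 library a genotype. In the cDC2s 3 cells held 91.9% of the *sGsn-/-* UMIs. The ratio was 0.39 without the 3 highest cells of each library, but 2.84 without doublets and 2.92 in thinned cells. It was −3.85 in cells without NK marker UMIs, which left 55 *sGsn-/-* and 319 WT cells.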

How the results depend on the processing

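The 3 comparisons kept the direction of every named gene in all alternatives run except *Isg15* against resting cDC1s, at −0.97 against all deposited cDC1s; the cause was not tested. Of 1130 values of 87 genes against resting cDC1s 9 no longer passed, of 818 values of 63 genes against *Cd7*-positive counterparts 6 and of 688 values of 53 genes against *Ear2*-positive cells 2. Leaving out a library gave 3447 to 4662, 1312 to 1835 and 2401 to 3523 genes past the threshold against 4902, 2232 and 3833, and thinning, which tests fewer genes, 3408, 1442 and 2115. With the library as a block 5108, 2483 and 4016 genes passed.

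Shares of the cDC2s in the WT, *sGsn-/-* and *sGsn-/- Clec9a-/-* libraries were 3.42%, 1.65% and 2.06% of all barcodes, 5.52%, 3.02% and 3.73% with 1 *Cd209a* UMI, 3.85%, 2.01% and 2.36% with 4, 1.97%, 0.975% and 1.10% with 2 *Flt3* UMIs, 3.65%, 2.08% and 2.64% with no *C1q* UMI, and 2.18%, 1.43% and 1.73% with the rule on thinned cells. At 2000 genes the *sGsn-/-* share was 3.05%. Genes 2-fold apart in *sGsn-/-* over WT were 10 in the report, 23 at 20 CPM, 15 in thinned cells, 14 (6 of them downward) without cells holding NK marker UMIs, 6 without the 10% of cells highest in heat shock genes and 1 without the 3 highest cells. Without doublets they were 8, and *Gzma*, *Gzmc* and *Xcl1* were not among them. *Gzmc* and *Xcl1* kept log2 ratios of 1.92 and 3.16 there but were under 50 CPM in both libraries. In *sGsn-/- Clec9a-/-* over *sGsn-/-* the genes 2-fold apart, 13 and all downward in the report, were 38 (7 upward) at 20 CPM and 33 (3 upward) in thinned cells. They were 28 (7 upward) without cells holding NK marker UMIs and 7 (2 upward) without the 3 highest cells. Without doublets they were 11, all downward. The *Ear2* comparison, the rule on thinned cells, and the alternatives on heat shock genes, NK marker UMIs and the 3 highest cells were chosen after seeing the data; the planned *Ear2* comparison was not run, with 9 and 12 cells in 2 libraries. Depth limits genes near the filter, and the 135 cells of the *sGsn-/-* library limit its ratios.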
